A study of Arabidopsis thaliana with 13 samples.

Results

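The genes described here are the nitrate and peptide transporters of the NPF family (NRT1/PTR family) of Arabidopsis thaliana together with NRT2.5. Members were chosen by name: a probe set belonged to the group if its single gene in the platform's probe table was 1 of 53 listed NPF loci or NRT2.5. Of these 54 genes 35 were found, each with 1 probe set, among 22810 probe sets on the array. The 19 others had no probe set with a single matched gene, among them the nitrate transporter and sensor NRT1.1 (AT1G12110), the xylem-loading transporter NRT1.5 (AT1G32450) and the 6 peptide transporters PTR1 to PTR6, and they were not analysed here. NPF numbers are given where the reference annotation lists one (11 of the genes found). The remaining 23 NPF genes are named by locus tag.

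NPF proteins are membrane transporters that move substrates together with protons. The family was first known for nitrate and for di- and tripeptides, and its members are now also known to carry glucosinolates, abscisic acid and gibberellins. NRT2.5 belongs to the separate NRT2 family of high-affinity nitrate transporters and is known for nitrate uptake by roots that have long been short of nitrogen. In roots such transporters take up nitrate at the surface, move it into the xylem or phloem, or store it in vacuoles.

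Whole-root RNA was hybridised to 13 ATH1 arrays, a short-oligonucleotide array with several probes per probe set. Plants of all groups were grown for 10 days on MGRL medium with 0.1 mM KNO3, a low nitrate supply, and 1% sucrose, at 22 °C with 16 h light and 8 h dark. Wild-type Col-0 (n = 3 arrays) was the background of the CLE3 overexpression lines 12-1 and 17-3 (n = 2 each), and wild-type Ler (n = 3) was the background of the CLV1 mutant clv1-15 (n = 3). CLE3 encodes a small secreted signalling peptide, and CLV1 a receptor kinase that perceives peptides of that family. Ler, short for Landsberg erecta, carries a mutation in the receptor kinase gene ERECTA, which clv1-15 shares. The promoter of the CLE3 transgene is not given in the sources used here, and the loss of CLV1 is represented by a single allele. Replicates are biological per the labels, which do not say whether they came from separate cultures, so p-values measure the spread between these samples.

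All values below are MAS5 signals, a linear brightness per probe set scaled by array, whose median over all probe sets was 189.8 to 200.1. Signals of different probe sets are not compared, since each has its own probes. Tests were made with limma on log2(signal + 16) over all 15923 probe sets that passed a filter on low signal, and a gene passed at an adjusted p (Benjamini-Hochberg) under 0.05. Fold changes are on this scale, which understates those of dim genes. Of the 35 members 24 passed the filter, with mean signals over the arrays of 58.7 to 1997.1. The 11 below it had means of 2.7 to 45.3. Among the listed root hair genes EXPA7 and EXPA18 were measured (2 of 5), with summed signals of 2641.5 to 3875.1 in the Col-0 background, 1503.4 to 1765 in Ler and 2096.5 to 2378.4 in clv1-15. Of the shoot markers RCA and LHCB4.1 were measured (2 of 7), with sums of 701.7 to 773.9 in Col-0, 673.8 to 800.8 in line 12-1, 1006.2 to 1022.9 in line 17-3, 912 to 1247.1 in Ler and 1436.9 to 1579.5 in clv1-15. Of the 2, only RCA was higher in Ler than in Col-0 (566.5 to 827 against 315.5 to 366.3). LHCB4.1 overlapped between them (345.5 to 420.1 against 370.3 to 407.6). None of these markers was near 0, and their part in the differences below was not tested. Of the 7 endodermis and stele markers 0 were measured. In whole roots, fewer cells of a type and less RNA per cell cannot be told apart.

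**Figure D1:**
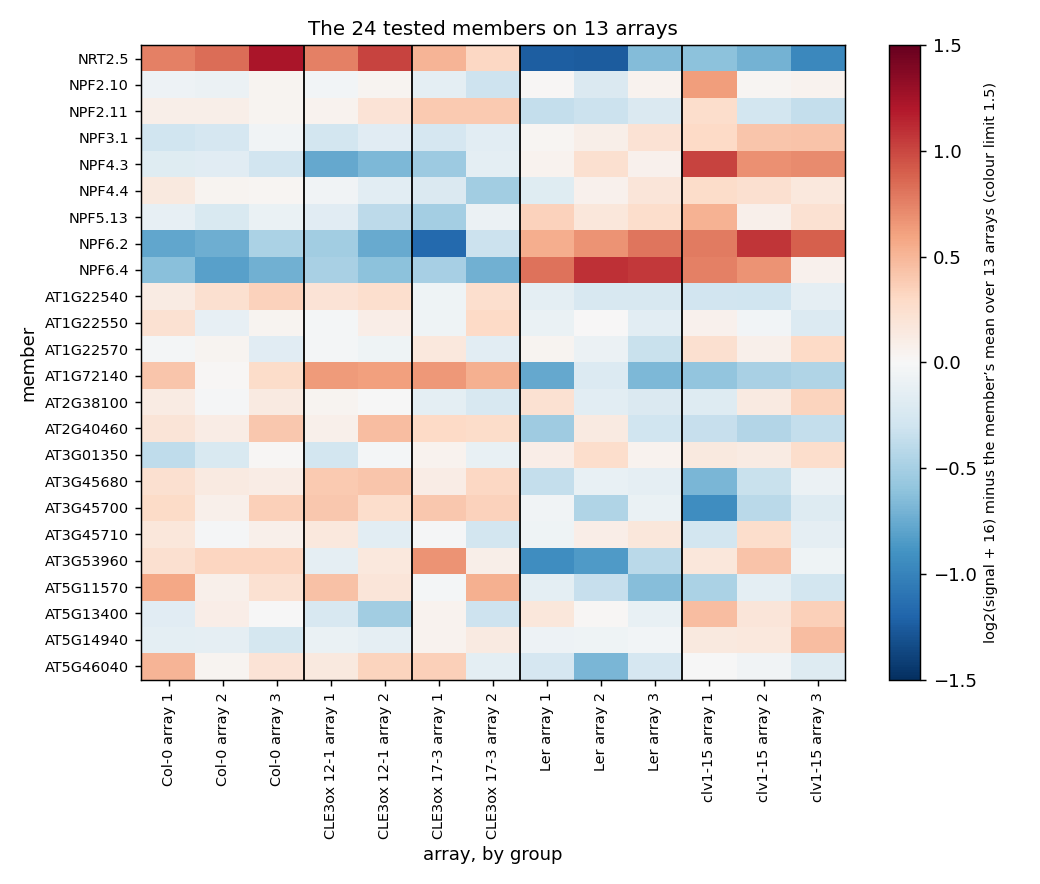
Each row is 1 of the 24 tested members and each column 1 of the 13 arrays, ordered by group with black lines between groups. Colour gives log2(signal + 16) minus the member's own mean over all arrays, with red above and blue below that mean and the colour limit at 1.5. NRT2.5 is red on all 7 arrays of the Col-0 background and blue on all 6 of the Ler background, and NPF6.2 and NPF6.4 show the opposite, while the columns of Col-0 and the lines differ little.

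The first comparison asked which of these genes differ in clv1-15 roots. NPF4.3 and AT3G53960 rose by 0.69 and 0.91 on the log2 scale, and AT5G14940 rose by 0.31, while NPF6.4 fell by 0.49. Of the 24 tested members 3 rose, 1 fell and 20 did not pass. The share that passed was 16.7% of the members, against 15.3% of all tested probe sets (6.88% higher and 8.4% lower), so it lies near the background. The marker genes EXPA18 (0.68 ± 0.10), RCA (0.49 ± 0.12) and LHCB4.1 (0.43 ± 0.09) rose in the same comparison (adjusted p = 0.00059, 0.014 and 0.0066). The other measured root hair gene, EXPA7, did not pass (0.24 ± 0.09, adjusted p = 0.085). The median log2 fold change of the members was 0.16, against -0.02 over all tested probe sets, and 18 of 24 members had a value above 0. The share of all tested probe sets above 0 was not counted, and whether the members shift as a set was not tested.

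NPF4.3 (AT1G59740) is a relative of the abscisic acid importer NPF4.6. Its signal was 265.1, 304.2 and 268.5 on the Ler arrays and 533.8, 421.4 and 428.7 on the clv1-15 arrays. All clv1-15 arrays lay above all Ler arrays, and they were also above every array of the Col-0 background. The fold change was 1.61 (log2 0.69 ± 0.12 SE, adjusted p = 0.0015), and the call held whichever of the 6 arrays was left out, at an adjusted p of 0.0032 to 0.0093.

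AT3G53960 gave 37.3, 40.4 and 60.9 in Ler and 98.9, 120.6 and 81.4 in clv1-15. The groups did not overlap, and the mutant's arrays lay close to those of Col-0, at 104, 111.5 and 111.9. The gene rose 1.88-fold (0.91 ± 0.19 SE, adjusted p = 0.0046), with an adjusted p of 0.0033 to 0.027 when any 1 array was left out. Its signal is low, and with the lowest 50% of probe sets left out it was not tested.

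AT5G14940 gave 562, 569.5 and 578.4 in Ler and 657, 664.1 and 823.4 in clv1-15. The groups did not overlap, but the mutant's arrays spread far more than those of Ler (714.8 ± 94.1 against 570 ± 8.2, SD, n = 3 each). The rise was 1.24-fold (0.31 ± 0.09 SE, adjusted p = 0.03), and the call ended without Ler array 1 (0.083), Ler array 2 (0.065), Ler array 3 (0.061) or clv1-15 array 3 (0.13, with a log2 value of 0.21). It also ended with only Ler and clv1-15 in the fit (0.06).

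NPF6.4 (AT3G21670) is a relative of the nitrate transporter and sensor NRT1.1. Its signal was 486.8, 595.6 and 579.2 in Ler and 467.7, 440.8 and 282.4 in clv1-15. All arrays of clv1-15 lay below those of Ler, array 3 far below the rest. The log2 fold change was -0.49 ± 0.15 (SE, adjusted p = 0.04). Without clv1-15 array 3 it was -0.27 (adjusted p = 0.15), and the call also ended without Ler array 2 (0.12) or Ler array 3 (0.11). Quantile normalization and centring of arrays on their median gave adjusted p = 0.063 and 0.057 for NPF6.4, and it also missed the threshold with no filter (0.072), with no trend (0.055) and with only Ler and clv1-15 in the fit (0.068). Under both settings NPF3.1 passed instead (log2 0.31 and 0.30, adjusted p = 0.039 and 0.042), so 4 members were higher and 0 lower, in place of 3 and 1.

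**Figure D2:**
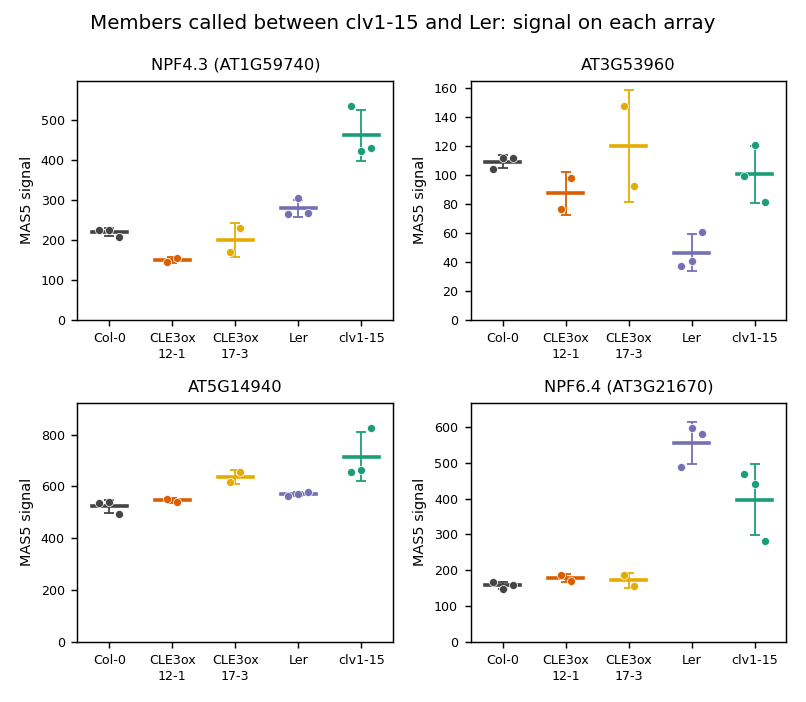
MAS5 signal (linear, from 0) of the 4 members that passed between clv1-15 and Ler, by group. Points are arrays, horizontal bars group means and error bars the SD (n = 3 for Col-0, Ler and clv1-15, n = 2 for each CLE3ox line). In clv1-15 NPF4.3 lies between 421.4 and 533.8, above all other arrays, and AT3G53960 lies between 81.4 and 120.6, in the range of the Col-0 background.

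NPF3.1 (AT1G68570), known as a gibberellin transporter of the root endodermis, gave 377.1, 394.8 and 432.4 in Ler and 459, 499.6 and 502.2 in clv1-15. These arrays did not overlap, yet the log2 fold change of 0.27 ± 0.09 had an adjusted p of 0.064. AT1G22570 gave 217.2, 198.8 and 164.3 in Ler and 252.2, 224.8 and 263.7 in clv1-15 (0.33 ± 0.12, adjusted p = 0.076). NRT2.5 had 0.29 ± 0.18 (adjusted p = 0.29, 95% confidence interval -0.09 to 0.66).

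GTR1 (NPF2.10) and GTR2 (NPF2.11) are known as the transporters that load glucosinolates, the sulfur-containing defence compounds of this plant family, into the phloem. The clv1-15 arrays were at 517.1, 335.1 and 342.4 for GTR1, with Ler at 333.8, 279.2 and 342.4. For GTR2 they were at 1787.1, 1223.6 and 1153.5, with Ler at 1151.9, 1180.7 and 1276.7. For both genes clv1-15 array 1 stood above the other two, which lay within the range of Ler. Neither gene passed (0.29 ± 0.14, adjusted p = 0.18, and 0.18 ± 0.12, adjusted p = 0.35).

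The second comparison asked whether these genes differ when CLE3 is overexpressed. The average of line 12-1 and line 17-3 was compared with Col-0. In limma's test 0 of the 24 tested members passed, where 2.44% of all tested probe sets did, and 3 had an unadjusted p under 0.05. Their log2 fold changes lay between -0.32 and 0.38, with a median of -0.02 (0.01 over all tested probe sets). Line 12-1 alone and line 17-3 alone against Col-0 likewise had 0 members past the threshold, against 0.433% and 3.32% of all tested probe sets, with 2 and 5 members at an unadjusted p under 0.05. Between line 17-3 and line 12-1 it was 0, against 0.264% of all, with 2 at an unadjusted p under 0.05. The percentages here are at the adjusted p. The share of all tested probe sets at an unadjusted p under 0.05 was not counted, so the unadjusted counts have no background beside them. Both lines share the 3 Col-0 arrays as their control.

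NRT2.5 (AT1G12940) gave 210.5, 225.2 and 298.2 in Col-0, 211.8 and 255.8 in line 12-1, and 175.7 and 150.9 in line 17-3. Line 12-1 lay within the range of Col-0, and both arrays of line 17-3 lay below it. The log2 fold change was -0.29 ± 0.16 for the lines' mean (adjusted p = 0.45, 95% confidence interval -0.64 to 0.06). It was -0.05 ± 0.20 in line 12-1 (adjusted p = 0.98) and -0.53 ± 0.20 in line 17-3 (adjusted p = 0.18). The difference between the lines was -0.48 ± 0.22 (adjusted p = 0.69). The summed signal of the root hair genes was 2641.5 and 2834.9 in line 17-3 and 3290.3 and 3292.7 in line 12-1, all below the 3374.4 to 3875.1 of Col-0. In line 17-3 EXPA7 fell (-0.45 ± 0.10, adjusted p = 0.021) and EXPA18 did not pass (-0.40 ± 0.12, adjusted p = 0.08). The shoot marker LHCB4.1 rose there (0.51 ± 0.10, adjusted p = 0.012), while RCA did not pass (0.40 ± 0.14, adjusted p = 0.15).

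The largest value of the 24 in the lines' mean belonged to AT1G72140, with 295.2, 219.6 and 266.1 in Col-0, 348.3 and 342.4 in line 12-1, and 350.9 and 322.5 in line 17-3. All 4 arrays of the lines lay above all 3 of Col-0. The log2 fold change of 0.38 ± 0.13 did not pass (adjusted p = 0.17, 95% confidence interval 0.10 to 0.66). NPF4.3 was lowest, at -0.32 ± 0.11 (adjusted p = 0.18). It had 223.6, 225.1 and 207 in Col-0, 143.8 and 154.6 in line 12-1, and 170.4 and 230.4 in line 17-3. Line 12-1 lay below Col-0 on both arrays, while the second array of line 17-3 lay above all of Col-0. Its relative NPF4.4 (AT1G33440) gave 144.5, 132.5 and 131.6 in Col-0, 123 and 113.4 in line 12-1, and 108.8 and 84.7 in line 17-3, without overlap (-0.31 ± 0.12, adjusted p = 0.22). GTR2 gave 1570.5, 1575.3 and 1530.3 in Col-0, 1543.3 and 1704.4 in line 12-1, and 1950.5 and 1947.3 in line 17-3. In line 17-3 its value was 0.32 ± 0.13 (adjusted p = 0.25).

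**Figure D3:**
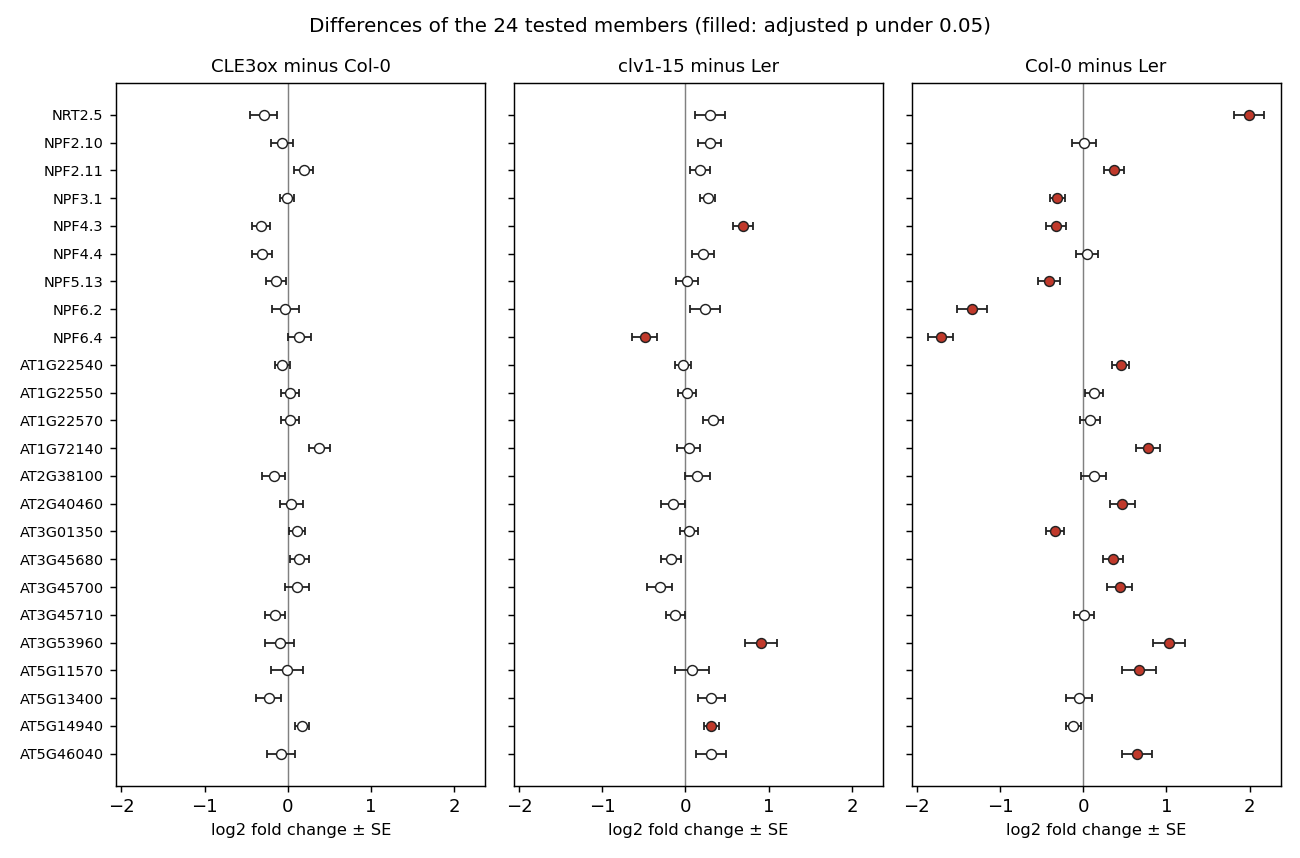
Log2 fold change (scale of log2(signal + 16)) with its SE for each of the 24 tested members in the lines' mean minus Col-0 (left), clv1-15 minus Ler (middle) and Col-0 minus Ler (right). Filled points passed at an adjusted p under 0.05. There are 0 filled points on the left, 4 in the middle and 16 on the right, where values run from -1.71 to 1.99.

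The effects of CLE3 overexpression and of clv1-15 share no arrays, and their difference was tested directly. The CLE3ox effect was measured only in Col-0 and the clv1-15 effect only in Ler, so genotype and background cannot be told apart here. The CLE3ox effect was lower than the clv1-15 effect for NPF4.3, by a log2 difference of -1.0 ± 0.16 (SE, adjusted p = 0.0011), and for AT3G53960, by -1.01 ± 0.26 (adjusted p = 0.019). These were 2 of 24 members (8.33%), against 11.2% of all tested probe sets (5.74% higher and 5.47% lower). For NPF4.3 the single effects were -0.32 and 0.69, and for AT3G53960 they were -0.10 and 0.91. The call on NPF4.3 held without any 1 of the 13 arrays. That on AT3G53960 ended without Ler array 1 (adjusted p = 0.053) or clv1-15 array 2 (0.057), and within the 10 arrays of lower signal for a spike-in control (0.072). The test was missed by 3 further members that passed under other settings. NPF6.4 (0.63 ± 0.21, adjusted p = 0.063) passed without clv1-15 array 1 (0.76, adjusted p = 0.034). NPF4.4 (-0.52 ± 0.17, adjusted p = 0.067) passed without line 17-3 array 1 (-0.59, adjusted p = 0.04) and with no trend (0.043). NRT2.5 (-0.58 ± 0.24, adjusted p = 0.14) passed without Ler array 3 (-0.77, adjusted p = 0.039).

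The third comparison set the wild types side by side. Here 16 of the 24 tested members passed, 10 higher and 6 lower in Col-0 than in Ler, a share of 66.7% against 45.3% of all tested probe sets (20.9% higher and 24.4% lower). The members' median log2 difference was 0.10, against -0.04 over all tested probe sets. ATH1 probes were designed on the Col-0 sequence, so a lower signal in Ler from less RNA and from sequence differences under the probes cannot be told apart. The spread of the members was wide, from 1.99 for NRT2.5 to -1.71 for NPF6.4.

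NRT2.5 gave 41.1, 40.4 and 69.3 in Ler, against 210.5 to 298.2 in Col-0. In clv1-15 it gave 71.9, 66.5 and 53, so the lowest array of the Col-0 background (150.9, line 17-3) lay above the highest of the Ler background (71.9). The difference was 3.97-fold (1.99 ± 0.18 SE, adjusted p = 2.3e-07). The root hair genes EXPA7 and EXPA18 were higher in Col-0 as well (1.07 ± 0.09, adjusted p = 1.5e-07, and 1.29 ± 0.10, adjusted p = 8.1e-08).

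For NPF6.4 and NPF6.2 the order was the reverse, as it was for the shoot marker RCA (-1.04 ± 0.12, adjusted p = 6.1e-06). The other shoot marker, LHCB4.1, did not pass (0.05 ± 0.09, adjusted p = 0.68). NPF6.4 gave 168.3, 146.9 and 157.6 in Col-0, and the 4 arrays of the CLE3ox lines lay between 157.2 and 187.2. These are all below the lowest clv1-15 array of 282.4 and far below Ler. It was 3.27-fold lower in Col-0 than in Ler (-1.71 ± 0.15 SE, adjusted p = 2.3e-07). NPF6.2 (AT2G26690), known as the low-affinity nitrate transporter NRT1.4 of the leaf petiole, gave 84.7, 88.5 and 109.1 in Col-0 and 237.1, 260.3 and 286.8 in Ler. The lines ranged from 61 to 122.3 and clv1-15 from 282 to 347.8, so the groups split by background without overlap. The difference was 2.52-fold (-1.34 ± 0.18 SE, adjusted p = 1.7e-05).

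**Figure D4:**
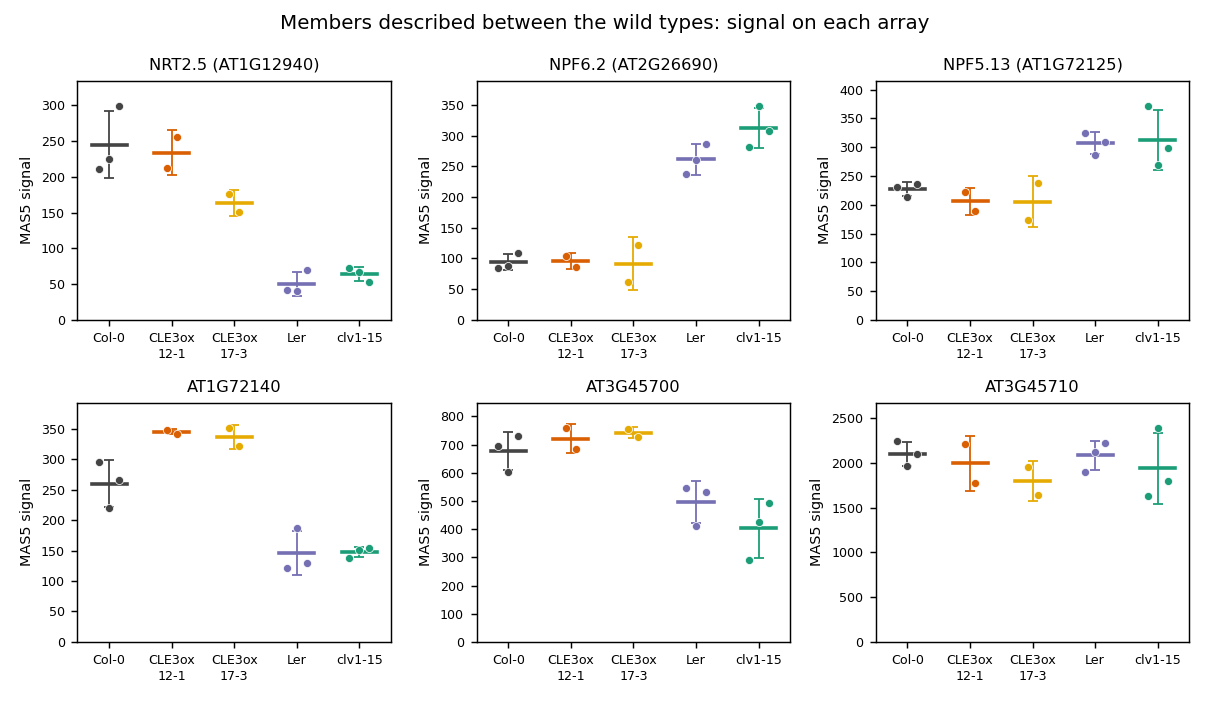
MAS5 signal (linear, from 0) of 6 members by group, chosen to show the main patterns between the wild types. Points are arrays, horizontal bars group means and error bars the SD (n = 3 for Col-0, Ler and clv1-15, n = 2 for each CLE3ox line). NRT2.5 and AT1G72140 are higher in the Col-0 background and NPF6.2 and NPF5.13 in the Ler background. AT3G45700 is lower in Ler than in Col-0, while for its neighbour AT3G45710 these groups overlap.

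Members that lie side by side in the genome did not all differ the same way. In the TAIR10.1 annotation NPF5.13 (AT1G72125), AT1G72130 and AT1G72140 follow each other with 0 coding genes between them. NPF5.13 gave 230.6, 212.9 and 236.2 in Col-0 and 325.4, 286.8 and 308.1 in Ler, and was lower in Col-0 (-0.41 ± 0.13, adjusted p = 0.017). AT1G72140 gave 121.2, 186.9 and 129.9 in Ler, below all 3 Col-0 arrays, and was 1.72-fold higher in Col-0 (0.78 ± 0.14 SE, adjusted p = 3e-04). Both groups of arrays were free of overlap, in opposite directions. AT1G72130, between them, was below the filter, at 6.4 to 38.9 over all arrays.

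A row of 5 neighbours, AT3G45680 to AT3G45720, lies near the nitrate exporter gene NAXT1. AT3G45680 gave 618, 573.2 and 565.4 in Col-0 and 404.5, 480 and 475 in Ler (0.36 ± 0.12, adjusted p = 0.027). AT3G45700 gave 697, 602.3 and 731.9 in Col-0 and 547.1, 411.5 and 531.5 in Ler (0.44 ± 0.15, adjusted p = 0.028). Both were higher in Col-0 without overlap. AT3G45710 gave 2240.6, 1964.6 and 2099.5 in Col-0, 2212.1 and 1781.5 in line 12-1, 1951.8 and 1638.2 in line 17-3, 1900.7, 2124.6 and 2226.4 in Ler, and 1636, 2386.3 and 1800 in clv1-15. The wild types overlapped. Both arrays of line 17-3 lay below Col-0, the first just below (1951.8 against 1964.6) and the second further down (1638.2). The difference between the wild types was 0.01 ± 0.12 (adjusted p = 0.94, 95% confidence interval -0.25 to 0.28). AT3G45690 and AT3G45720 were below the filter, at 3 to 36 and 28.5 to 61.8. Whether probes of one neighbour also bind transcripts of another was not tested.

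In a further row, AT1G22540 gave 486.8, 529.7 and 572.7 in Col-0 and 401.6, 376 and 375 in Ler, without overlap (0.45 ± 0.10, adjusted p = 0.0016). Its neighbour AT1G22550 gave 727.8, 568.6 and 637.5 in Col-0, 608.4 and 667.7 in line 12-1, 591.3 and 764.8 in line 17-3, 577.8, 621.8 and 556.4 in Ler, and 651.5, 600.8 and 537.6 in clv1-15. All 5 groups overlapped (0.13 ± 0.11, adjusted p = 0.36). The next gene of the row, AT1G22570, had 0.08 ± 0.12 (adjusted p = 0.63).

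GTR2 had all 3 Col-0 arrays above the 3 of Ler (0.37 ± 0.12, adjusted p = 0.02), and GTR1, with 311.5, 306.6 and 339 in Col-0, overlapped with Ler (0.01 ± 0.14, adjusted p = 0.97). NPF3.1 gave 297.6, 309 and 356.6 in Col-0, all below Ler (-0.31 ± 0.09, adjusted p = 0.013). NPF4.3 was lower in Col-0 too (-0.33 ± 0.12, adjusted p = 0.035), again without overlap. Its relative NPF4.4 did not pass (0.05 ± 0.13, adjusted p = 0.77). AT3G53960 was 2.04-fold higher in Col-0 (1.03 ± 0.19 SE, adjusted p = 0.00035). AT3G01350 gave 322.2, 361.6 and 431 in Col-0 and 458, 516 and 441 in Ler, and was lower in Col-0 (-0.34 ± 0.11, adjusted p = 0.022).

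AT5G11570 gave 92, 60.2 and 68.9 in Col-0 and 49.4, 40.8 and 30.4 in Ler (0.67 ± 0.20, adjusted p = 0.012). AT5G46040 gave 92.1, 62 and 71.1 in Col-0 and 47.7, 31 and 47.8 in Ler (0.65 ± 0.18, adjusted p = 0.0097). Both were higher in Col-0 without overlap, at low signal. AT2G40460 gave 198, 187.3 and 233.3 in Col-0 and 114.3, 189.9 and 136.7 in Ler (0.47 ± 0.15, adjusted p = 0.021). Its second Ler array lay within the range of Col-0.

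Of the 16 calls 6 held without any 1 of the 6 wild-type arrays, those of NRT2.5, NPF6.4, NPF6.2, AT3G53960, AT1G72140 and AT1G22540. The other 10 ended without certain arrays. Without Col-0 array 1, 8 members passed. The share of all tested probe sets that passed with an array left out was not counted, so these losses cannot be set against those of other genes. Removal of Col-0 array 1 ended the calls on AT3G45680, AT3G45700, GTR2, NPF4.3, NPF3.1, AT5G11570, AT3G01350 and AT5G46040. Removal of Col-0 array 2 ended those on AT3G45680, GTR2, NPF5.13, NPF4.3 and AT3G01350, and removal of Col-0 array 3 those on AT3G45700, NPF4.3 and AT2G40460. Removal of Ler array 1 ended those on AT3G45680, GTR2, NPF5.13 and AT2G40460. Removal of Ler array 2 ended those on AT3G45700, GTR2, NPF4.3, AT3G01350 and AT5G46040, and removal of Ler array 3 those on NPF4.3, NPF3.1, AT5G11570 and AT2G40460. Where a call ended, the adjusted p lay between 0.052 and 0.11 for AT3G45680, 0.077 and 0.13 for AT3G45700, 0.052 and 0.065 for GTR2, and 0.061 and 0.062 for NPF5.13. It lay between 0.054 and 0.12 for NPF4.3, 0.061 and 0.065 for NPF3.1, 0.057 and 0.065 for AT5G11570, 0.061 and 0.12 for AT3G01350, 0.052 and 0.056 for AT5G46040, and 0.063 and 0.11 for AT2G40460. All of these kept their direction. Within the 10 arrays of lower signal for a spike-in control, which leave out Col-0 array 3, the calls on AT3G45680, AT3G45700, GTR2, NPF4.3 and AT2G40460 ended too (adjusted p = 0.053, 0.11, 0.051, 0.072 and 0.086), and that on NPF4.3 ended with no filter (0.054).

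The remaining tested members, AT5G13400 and AT2G38100, passed in 0 of the comparisons. AT5G13400 ranged from 46.3 to 107.5 over all arrays and AT2G38100 from 89.6 to 141.5. The 11 members below the filter were NPF4.1 and NPF4.5, both known to carry abscisic acid in yeast assays, NPF4.2, and the loci AT1G69860, AT1G72130, AT2G37900, AT3G45690, AT3G45720, AT5G19640, AT5G28470 and AT5G62730. Their signals ran from 0.5 to 62.4. In a fit with no filter, where 32.5% of probe sets passed between the wild types, NPF4.1 (-0.62 ± 0.19, adjusted p = 0.023) and AT5G62730 (-0.75 ± 0.27, adjusted p = 0.046) were lower in Col-0. The other 9 did not pass.

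Of other genes of nitrogen nutrition few had a probe set with a single matched gene. Among the listed nitrate signalling genes 6 of 29 were found and 5 tested. In CLE3ox 1 of the 5 rose (2.44% of all tested probe sets passed), the CC-type glutaredoxin gene AT1G06830, from 171.7, 216.6 and 257.6 in Col-0 to 451.4 and 579.2 in line 12-1 and 349.5 and 256.6 in line 17-3. Line 12-1 lay above Col-0 on both arrays, and the second array of line 17-3 within its range. The log2 fold change was 1.21 ± 0.20 in line 12-1 (adjusted p = 0.0097), and 0.47 ± 0.20 in line 17-3, which did not pass (adjusted p = 0.26). For the lines' mean it was 0.84 ± 0.17 (adjusted p = 0.012), and its difference from the clv1-15 effect was 0.99 ± 0.24 (adjusted p = 0.018). The call ended without Col-0 array 1 or line 12-1 array 2 (0.061 to 0.084), within either set of arrays divided by a spike-in control, and with both lines as 1 group of 4 arrays. In line 17-3 alone, where 3.32% of all passed, the 1 gene of the 5 that did was AT1G25550 (0.40 ± 0.10, adjusted p = 0.047), named here after its values were seen. In line 12-1 its value was 0 ± 0.10, with arrays at 391.6 and 385.5, within the range of Col-0 (358.7 to 406.3). In clv1-15 0 of the 5 passed in limma's test, against 15.3% of all tested probe sets, with values between -0.17 and 0.08. Between the wild types 0 of the 5 passed, against 45.3% of all. In both comparisons 0 had an unadjusted p under 0.05. Of the 8 other high-affinity nitrate transport genes, 5 nitrate channels and exchangers, 15 genes of nitrate reduction and assimilation, 6 ammonium transporters and 9 oligopeptide transporters 0 were found, so nothing is said here of these groups.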

How the data were processed

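The authors deposited 1 table of linear intensity values (MAS5 signal, per the submitters' processing notes; version, aligner and detection calls not given in the sources used here) for 13 ATH1 arrays. All arrays had a 2% trimmed mean of 500.0, so they had been scaled singly. No detection calls were used. Of the table's columns 0 lacked a sample, and 0 pairs of arrays were identical. The number of arrays limits the precision.

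A pseudocount of 16 was added before taking log2. Of the 22810 probe sets, 64 controls were dropped, then the dimmest 30% by mean over arrays, and 15923 were tested. limma 3.58.1 in R 4.3.3 fitted 5 groups together (eBayes with a trend, Benjamini-Hochberg over all tested probe sets). The fit was also run on simulated data with independent noise on each array, which lack the structure shared between real arrays of the Col-0 background. Errors are SE for log2 fold changes and SD for signals. Probe sets were joined to members by gene ID through the TAIR10.1 annotation, which named 13436 single-gene probe sets. The members, lists and tests were chosen with earlier results of these data known. Array values are given for members with a call in any comparison and for the 3 with the highest mean signal. Those of NPF2.10 (GTR1), NPF4.4 and AT1G22570 were added after their values were seen.

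Alternatives were other pseudocounts, filters and scalings, no trend, array weights, fits on the compared groups only, a replicate block, both lines as 1 group, and leaving out each array. A grouping of arrays by the signal of a bioD spike-in probe set, divided at 3500, was used as a term and within each grouping. It was chosen after seeing the data.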

Additional observations from a re-analysis of the deposited data

How the results depend on the processing

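The count of members past the threshold was 0 for CLE3ox, for either line and between the lines under all alternatives run. In clv1-15 it was 4 and became 2 with only its groups in the fit and 2 to 4 when 1 array was left out; leaving out Ler array 2, Ler array 3 or clv1-15 array 3 gave 2. Between the wild types it was 16, and 8 to 13 when 1 array was left out. It became 10 with the lowest 50% left out, where 15 members were tested and those lost, NRT2.5 and NPF6.2 among them, were not. For the difference of the effects it was 2, became 1 within the first spike-in grouping, and was 1 to 3 when 1 array was left out. With the lowest 50% left out it was 1, as AT3G53960 was not tested there. The share of all tested probe sets that passed with 1 array left out was not counted. The planned division on the mean of the bioD probe sets gave no value, since no array lay above it, and the single probe set was used in its place. The value of NRT2.5 in line 12-1, -0.05, turned to 0.02 with array weights, to 0.03 with the replicate block, to 0.09 without Col-0 array 3 and to 0.08 without line 12-1 array 1. With 1 array left out it ranged from -0.18 to 0.09. The adjusted p was 0.97 to 0.99 where the sign turned, and the cause was not tested. Arrays with the same replicate number deviated from their group means with r = 0.01 to 0.19 for Ler and clv1-15, -0.19 to 0.24 for Col-0 and the lines, and 0.31 between the lines. These values were mixed. Ler array 2 and Ler array 3 correlated most with the clv1-15 array of the same number (0.19 and 0.1). Ler array 1 correlated more with clv1-15 array 3 (0.08) than with array 1 (0.01), and Col-0 array 2 had -0.18 and -0.19 with array 2 of the lines. The numbers were therefore not taken to pair the arrays. Arrays of the Col-0 background did share a structure, which does not follow the numbers throughout. Col-0 array 3 correlated with array 2 of line 12-1 (0.33) and of line 17-3 (0.29). Its values with their array 1 (-0.33 and -0.29) only mirror these, since each line has 2 arrays around its mean. Col-0 array 3 and array 2 of each line are also the arrays above the spike-in division of 3500. With the replicate block the counts were 5 for clv1-15 (all 4 and NPF3.1), 16 between the wild types, 2 for the difference of effects and 0 elsewhere.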
